A study of Sus scrofa and Bos taurus with 31 samples.

Results

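The cerebellum was compared with 7 other tissues (cerebral cortex and hypothalamus of the brain, and adipose, liver, lung, spleen and skeletal muscle) in lists of open chromatin. The assay was ATAC-seq, which uses an enzyme that inserts sequencing adapters where DNA is free of nucleosomes. The pigs, P348 and P350, were castrated male Yorkshire littermates of 6 months, and the cattle, M08 and M22, were intact male Line 1 Herefords of 14 months with the same sire, so neither species had females or unrelated animals and no animal was treated. Each pig gave 1 list per tissue, 16 lists in all, while cattle cerebellum was represented by M22 alone among 15 lists and served only as support. Peaks of the pig lists that shared at least 1 bp were merged into 533944 regions. Of these, 129650 had a peak in both cerebellum lists, and 19024 of the 129650 (14.7%, 95% Wilson interval 14.5 to 14.9, counting error only) met no peak in any of the 14 other lists. These 19024 regions, 3.56% of all merged regions, are called cerebellum-only below. They covered 16.4 Mb of the 2486 Mb Sscrofa11.1 assembly. The pieces of cerebellum came from frozen nuclei of whole tissue, so a smaller share of a cell type and less open chromatin per cell cannot be told apart.

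The cerebellum coordinates movement and is packed with granule neurons, small excitatory cells that receive input from mossy fibres and pass it to Purkinje cells, the large inhibitory neurons that form the output of its cortex. Granule neurons arise from precursors that use ATOH1 and later NEUROD1, factors that bind E-box sequences, and ZIC factors. Open chromatin away from gene starts often holds enhancers, and enhancers tend to be used in fewer tissues than gene starts.

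The label of the tissue was checked at 3 marker genes, GABRA6 (a subunit of the GABA-A receptor made by granule neurons), ZIC1 (a zinc finger factor of granule cells) and CBLN1 (a synaptic protein that granule neurons release onto Purkinje cells). Within 10 kb of GABRA6 (chr16:61855698-61872503) the cerebellum lists held 3546 and 3753 peak bases and the 14 others 0 to 2756. Per Mb covered by the list these were 22.8 and 25.4 against 0 to 30.3, the highest being hypothalamus of P350, so the groups overlapped on that scale. The strongest peak there had a fold enrichment over local background of 4.85 in P348 and 7.96 in P350, against at most 3.37 in any other list, which was hypothalamus of P348. The annotated starts of GABRA6 lay under a peak in both cerebellum lists and in lung of P348, and in none of the other 13. With peaks of q under 0.0001 alone, GABRA6 carried 197 and 138 peak bases per Mb of list in cerebellum, and the 14 other lists were at 0. ZIC1 (chr13:87740769-87750258) was open in every list, with 41.1 and 42.8 peak bases per Mb in cerebellum against 29.9 to 96.96 elsewhere, but at q under 0.0001 cerebellum had 142 and 165 and the highest other list, skeletal muscle of P350, had 123. CBLN1 (chr6:35516097-35518080) did not set cerebellum apart in the deposited lists, with 17.4 and 19.6 peak bases per Mb against 0 to 27.0. The start of CBLN1 lay under no peak in either cerebellum list. Per Mb of list, none of the 3 genes set both cerebellum lists above all others in the deposited lists, and GABRA6 and ZIC1 did at q under 0.0001. In lists cut to equal length GABRA6 and CBLN1 did.

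Sequences of 4 places are printed, from cerebellum-only regions of high fold or from the marker gene. The region second by weaker fold and the strongest GABRA6 peak held no match to the 14 motifs below and are not printed. That all 4 printed places hold matches therefore follows from the choice. Of all merged regions, 17.4% held CAGATG and 8.12% held CAGCAGG in their central 200 bp. The printed sequences are read 5′ to 3′ on the plus strand of Sscrofa11.1 from NCBI RefSeq. Each is at most 300 bases from the middle of the region. Capitals mark matches, on either strand, to any of 14 short motifs: CAGATG (the E-box of NEUROD and ATOH factors), CAGCTG (another E-box), CAGCAGG (ZIC), TTGGCA (NFI), TAATTA (homeobox), GTTGCC (RFX), CCGGAAG (ETS), TGANTCA (AP-1), CTATTTTTA (MEF2), AGGGGGC (CTCF core), TGTTTAC (FOXA), AACAATG (SOX), AGGTCA (nuclear receptors) and GTTAATNAT (HNF1). The letters of overlapping motifs run together in capitals.
Second intronic GABRA6 peak, chr16:61860382-61860681: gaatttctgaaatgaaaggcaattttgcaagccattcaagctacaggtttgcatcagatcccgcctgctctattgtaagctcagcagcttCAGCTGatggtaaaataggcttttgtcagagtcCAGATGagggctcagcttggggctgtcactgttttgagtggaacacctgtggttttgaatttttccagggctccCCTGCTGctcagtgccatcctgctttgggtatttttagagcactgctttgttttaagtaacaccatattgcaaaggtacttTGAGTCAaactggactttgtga
STMN2 region, chr4:57226933-57227232: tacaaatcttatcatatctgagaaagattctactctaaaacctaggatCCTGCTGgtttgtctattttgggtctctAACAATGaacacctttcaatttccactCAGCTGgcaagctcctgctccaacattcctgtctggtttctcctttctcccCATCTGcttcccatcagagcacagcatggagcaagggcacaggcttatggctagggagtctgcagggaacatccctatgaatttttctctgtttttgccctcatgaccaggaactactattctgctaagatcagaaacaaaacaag
PCDH7 region, chr8:25278705-25279004: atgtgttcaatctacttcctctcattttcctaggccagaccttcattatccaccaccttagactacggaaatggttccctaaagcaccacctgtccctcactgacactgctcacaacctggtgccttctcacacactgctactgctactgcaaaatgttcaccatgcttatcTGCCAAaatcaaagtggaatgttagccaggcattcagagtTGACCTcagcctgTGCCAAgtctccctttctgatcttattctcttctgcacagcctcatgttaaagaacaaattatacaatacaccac
EYS region, chr1:47746712-47747011: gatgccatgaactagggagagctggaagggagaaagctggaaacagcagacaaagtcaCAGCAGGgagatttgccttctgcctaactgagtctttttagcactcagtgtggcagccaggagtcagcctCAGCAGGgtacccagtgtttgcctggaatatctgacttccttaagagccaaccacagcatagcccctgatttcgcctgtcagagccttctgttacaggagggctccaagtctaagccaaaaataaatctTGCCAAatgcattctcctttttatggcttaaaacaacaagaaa

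GABRA6 held a pair of intronic peaks in both cerebellum lists. The first, shared over chr16:61857749-61858120, was the strongest of the gene, overlapped a peak of hypothalamus of P350, and held none of the 14 motifs in its middle 300 bases. The second, shared over chr16:61860379-61860684, met no peak elsewhere and is therefore a cerebellum-only region, with folds of 4.198 and 5.86. It held 1 CAGATG, 1 CAGCTG, 1 ZIC and 1 AP-1 match, as printed above.

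The cerebellum-only region with the highest fold in its weaker animal lay at chr11:55616328-55616646, with a fold of 10.7 in P348 and one of 14.4 in P350, 660560 bp from the nearest gene start, that of SLITRK1, a membrane protein of neurons that shapes neurites. Its central 200 bp were 90% repeat sequence, so the placement of its reads could be uncertain, and its letters are not printed. The second, at chr5:97163241-97163577, had folds of 10.8 and 9.80 and lay 47145 bp from the start of SLC6A15, an amino acid transporter of neurons. Its middle 300 bases held none of the 14 motifs and are not printed. The one after that, at chr8:25278652-25279057, had folds of 9.28 and 9.96 and lay 1819177 bp from PCDH7, a protocadherin. The fourth, at chr4:57226920-57227245, had folds of 9.22 and 8.85 and lay 220176 bp from STMN2, a microtubule regulator of neurons; it held 1 match each to CAGATG and CAGCTG. The fifth, at chr1:47746622-47747102, had folds of 8.73 and 10.2 and lay 1096900 bp from EYS, an extracellular protein of photoreceptors. None of these 5 lay within a gene. Their folds were far above the rest, since the weaker fold over all cerebellum-only regions had a median of 2.73 and a 90th percentile of 3.37.

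Cerebellum gave the largest number of peaks in pigs. The cerebellum lists held 217308 peaks over 156 Mb in P348 and 207917 peaks over 148 Mb in P350, and the 14 others 99960 to 193317 peaks over 64.1 to 145 Mb. Peak number was 1.60 times and covered length 1.72 times the geometric mean of the other lists (exact two-sided permutation test over the 120 choices of 2 of 16 lists, p = 0.00833, the smallest those choices can give, for each; Benjamini-Hochberg adjusted p = 0.0117 over 7 measures). The 14 others are pairs from 7 tissues, and over the 8 tissues the exact p cannot be below 0.125. The order turned at a stricter limit. At q under 0.0001 only 25092 and 35792 cerebellum peaks were left (11.5% and 17.2% of the lists), against 12842 to 79389 elsewhere, and the log2 difference in peak number became -0.49 (exact permutation p = 0.383). The other lists kept 11.08% to 74.5% of their peaks. Sequencing depth, on which a q-value depends, was not used here.

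The peaks of 1 list that overlapped no peak of another tissue are called tissue-only. They numbered 65985 in cerebellum of P348 and 41696 in cerebellum of P350, or 30.4% and 20.1% of those lists. The other lists held 4282 to 20403 tissue-only peaks, or 4.05% to 15.3%. Cattle gave a like picture, with 58894 of 215310 peaks of the M22 cerebellum (27.4%) meeting no peak of another tissue, against 5.30% to 15.4% in the 14 other cattle lists. With 1 list against 14 the exact p could not be below 0.0667. Lung of M08 (221848 peaks) had a longer list than cerebellum in cattle. At q under 0.0001 the pig cerebellum had 7567 and 9205 tissue-only peaks, between the extremes of the others, 464 and 31794.

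**Figure D1:**
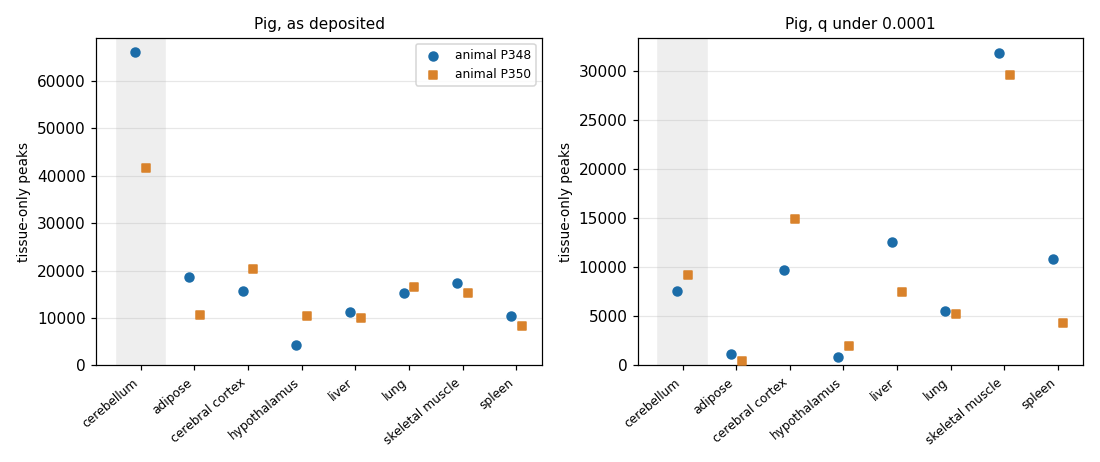
Number of tissue-only peaks (y axis) of each pig list by tissue (x axis), with 1 point per animal, for the deposited lists on the left and for peaks with q under 0.0001 on the right. On the left both cerebellum lists lie above all 14 others, which end at 20403, and on the right the skeletal muscle lists are highest, with cerebellum at 7567 and 9205.

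The recovery of cerebellum-only sites was tested across animals, so that the regions were chosen in 1 pig and looked up in the lists of the other. Of 89374 regions open only in cerebellum among the lists of P348, 36.7% met a cerebellum peak of P350 (Wilson interval 36.4 to 37.0). Of 55946 chosen in P350, 50.9% met a cerebellum peak of P348 (50.5 to 51.3). The other tissues of the second animal met 0.375% to 11.3% of them, the highest being hypothalamus of P350, and all 14 shares lay below both cerebellum shares. The mean difference was 38.9 percentage points (43.8 ± 10.1 against 4.88 ± 3.21, SD, n = 2 and 14 lists; exact permutation p = 0.00833, adjusted 0.0117). The regions were chosen for a cerebellum peak and for no peak of another tissue, which favours the cerebellum list of the second animal. The lists were therefore not exchangeable, and this p-value cannot decide whether recovery exceeded what the choice itself brings. The cerebellum lists cover 5.94% and 6.26% of the assembly and the others 2.58% to 5.83%. Recovery rose with the strength of the peak. Among regions chosen in P350, 34.3% of those with folds up to 2.61 and 70.8% of those with folds from 3.66 to 14.4 met a cerebellum peak in P348. In the other direction the shares were 29.7% for folds up to 2.50 and 53.2% for folds of 3.42 or more. Recovery was not particular to cerebellum. Skeletal muscle regions chosen in the same way were met by the muscle list of the other pig in 62.0% and 78.2%, cerebral cortex regions in 43.6% and 58.6%, and hypothalamus regions in 6.41% and 16.9%.

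**Figure D2:**
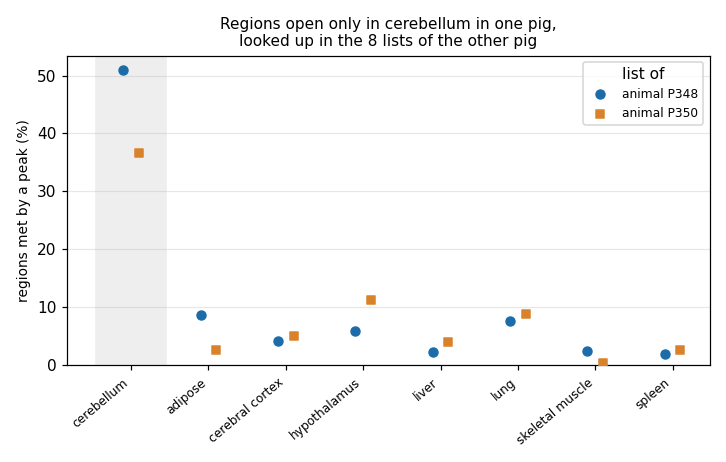
Share of the regions open only in cerebellum in 1 pig that met a peak of the other pig (y axis, percent), by the tissue of the list looked up (x axis), with 1 point per list coloured by the animal of that list. The cerebellum lists reach 36.7% and 50.9%, and the 14 other lists lie between 0.375% and 11.3%.

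Cerebellum regions ranged from private to shared by every tissue. Besides the 19024 in cerebellum alone, 13100 regions met a peak in exactly 1 of the 14 other lists and 16833 met a peak in all 14. The weaker fold did not mark the private regions, with a median of 2.73 at 0 other lists, 2.71 at 1 other list and 3.60 at all 14. Where 1 other list was involved, it was hypothalamus of P350 for 3313 of the 13100 regions (25.3%) and lung of P350 for 1931 (14.7%), while the cerebral cortex lists gave 664 and 991. When a tissue was called open by a peak in both animals, 19532 regions were open in cerebellum and in a single other tissue. The partner was lung for 30.7%, cerebral cortex for 22.2% and hypothalamus for 15.9%. Those 3 tissues had 119629, 109427 and 68715 regions open in both animals.

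**Figure D3:**
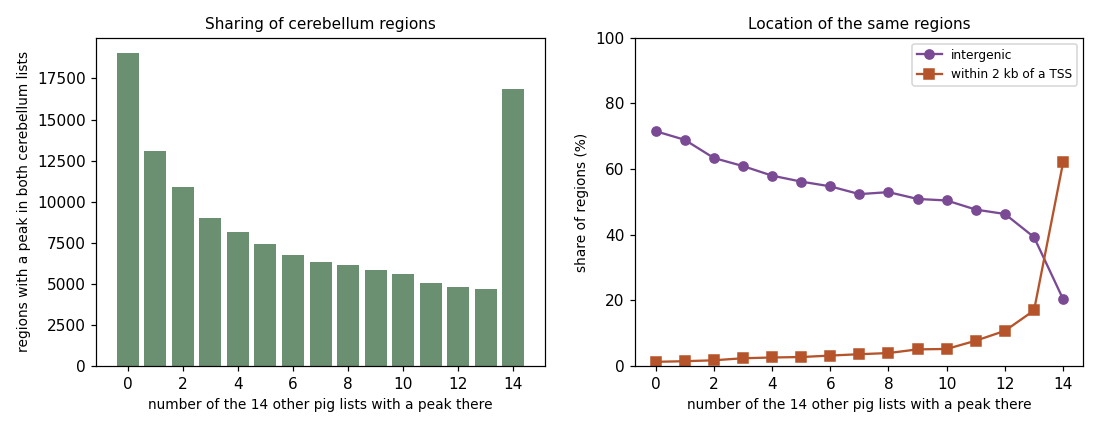
Left, number of regions with a peak in both pig cerebellum lists (y axis) by how many of the 14 other lists have a peak there (x axis). Right, the share of the same regions (y axis, percent) that is intergenic or within 2 kb of a TSS. The counts run from 19024 at 0 down to 4661 at 13 and up to 16833 at 14, and the TSS proximal share runs from 1.27% to 62.1%.

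Most cerebellum-only regions lay far from the starts of coding genes, though some were within genes. Only 242 of 19024 (1.27%, Wilson interval 1.12 to 1.44) were within 2 kb of the transcription start site (TSS) of a coding gene, 527 (2.77%) touched an exon, 4646 (24.4%) lay in introns and 13609 (71.5%) were intergenic. The median distance to a coding TSS was 186 kb. The 563 regions with a fold of at least 4 in both lists were 58.8% intergenic and 34.6% intronic, with a median of 121 kb. Regions open only in cerebral cortex were intergenic in 44.9% and those of skeletal muscle in 30.6%, with medians of 53.4 kb and 29.2 kb. The closest tissue was hypothalamus, whose 398 regions were intergenic in 56.3%, with a median of 115 kb. Their TSS proximal share, 0.503%, was below that of cerebellum. Over libraries, 70.9% and 67.3% of the tissue-only peaks of cerebellum were intergenic, and 30.2% to 56.3% of those of the other lists. This difference of 25.2 percentage points (69.1 ± 2.57 against 43.9 ± 7.66, SD, n = 2 and 14; exact permutation p = 0.00833, adjusted 0.0117) was a comparison added after the data were seen. It was 25.3 points in peaks whose central 200 bp were 36 to 44% G and C and 21.0 points at q under 0.0001, with both cerebellum lists above all others in each (exact permutation p = 0.00833). The TSS proximal share was 1.37% and 1.45% in cerebellum and 1.35% to 4.70% elsewhere (exact permutation p = 0.025, adjusted 0.0292). A single other list, hypothalamus of P350, was lower than either, and at a distance of 500 bp the p was 0.0583 by the same exact test.

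Tissue-only peaks of cerebellum held a higher share of repeat sequence than those of the other lists. Over the cerebellum-only regions the median repeat share of the central 200 bp was 25%, and the share of the whole assembly is not given here. In the central 200 bp of tissue-only peaks the share of soft-masked bases, which are those the reference marks as repeats, was 36.3% and 40.8% in cerebellum and 15.02% to 32.8% in the other lists (exact permutation p = 0.00833, adjusted 0.0117). Adipose had the next values, 32.8% and 30.4%. At q under 0.0001 cerebellum was still above all 14 others, with 26.7% and 25.1% against 10.7% to 19.1%. GC content of the same bases was 43.3% and 46.0% in cerebellum and 44.6% to 51.2% elsewhere, a difference of -2.75 points that did not pass the test (exact permutation p = 0.0917). Over all peaks of a list, cerebellum of P348 had the lowest GC content, 48.9%, and cerebellum of P350 had 51.9%, within the 51.9% to 56.2% of the others. The part that GC content and repeats play in the results here was not tested beyond the values given.

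The density of cerebellum-only regions differed between chromosomes. Chromosome 8 had 13.0 per Mb, chromosome 16 had 10.8 and chromosome 11 had 10.5, while chromosome 12 had 0.308, with 19 regions in all. Over 18 autosomes and X the density fell with the GC content of the chromosome (Spearman's rho = -0.842 across 19 chromosomes of the same lists, a description). The same measure was -0.616 for hypothalamus-only and -0.581 for liver-only regions, and positive for regions open only in adipose (0.930), cerebral cortex (0.830), lung (0.639), skeletal muscle (0.484) and spleen (0.453). Peaks of the P348 cerebellum on chromosome 12, the chromosome with most G and C (47.7%), came to 27.8 per Mb against 57.5 in P350, so the cerebellum libraries themselves differed there. X held 773 cerebellum-only regions, 29.5% of its regions open in both cerebellum lists, the highest share of any chromosome.

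The 3 bins of 1 Mb with the most cerebellum-only regions held no coding gene. The first, chr8:22000001-23000000, had 59 regions, with 205 and 145 peaks in the cerebellum lists and 2 to 47 in the others. The second, chr4:26000001-27000000, had 55, with 195 and 131 peaks against 1 to 49. The third, chr13:62000001-63000000, had 50, with 189 and 151 peaks against 0 to 55. In each bin the highest other list was hypothalamus of P350. The bins were 34.5% to 37.1% G and C. Among the 2080 bins with at least 1 such region the median was 5.

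The 19024 regions were nearest to the starts of 3912 of 20373 coding genes, and 74 of them lay on sequences with no coding gene. The 15 genes nearest to the most regions together took 1253 of them. PCDH7, the protocadherin named above, led with 136 regions, 36.4 per Mb of the sequence closest to its starts, and only 7 of them touched the gene itself. The teneurins TENM3 and TENM2, which bind across synapses to latrophilins, had 117 and 97, of which 74 and 78 lay within the gene. The cadherins CDH9 and CDH6 had 90 and 66. PTPRD, a receptor phosphatase that organizes synapses, had 87, and NCAM2, an adhesion molecule of the immunoglobulin family, had 76. GRM7, a metabotropic glutamate receptor, had 80, of which 40 lay within it, and had the highest density of the 15 genes, 45.8 per Mb. EPHA7, an ephrin receptor, had 73, FLRT2, an adhesion protein that guides axons, had 68, ADGRL2, a latrophilin, had 67, and LRRC4C, a synaptic adhesion protein, had 66. CSMD3 had 71, ARAP2, a regulator of small GTPases, had 85, and PABPC4L, related to poly(A)-binding proteins, had 74. The whole assembly held 7.65 cerebellum-only regions per Mb, and the stretches of the 15 genes held at least 22.7 per Mb. The genes were chosen for having the most regions, so densities above that mean follow from the choice. Whether synaptic or adhesion genes are more frequent among them than among all coding genes was not tested.

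A gene start lay within 500 bp of only 109 cerebellum-only regions. Ordered by the weaker fold, the first was at MET, the receptor for hepatocyte growth factor (chr18:29511346-29512592), with folds of 5.00 and 4.41. It covered 1 of 5 annotated starts, and 3 of the 5 were under a peak in some other tissue. PLEKHS1 (folds 4.27 and 4.63), SGMS1, an enzyme of sphingomyelin synthesis (3.78 and 3.89), SLC35F1 (3.48 and 3.98), SOX6, a transcription factor of neuron and muscle development (3.17 and 3.23), and EPB41L2, a membrane skeleton protein (3.35 and 3.16), likewise had other starts open elsewhere. SOX6 had 35 annotated starts, of which 1 was here and 24 were open in another tissue. PRR36 (4.33 and 3.70), GCSAML (3.23 and 3.25), DEFB113, a defensin (3.27 and 3.20), and CYLC1, a protein of the sperm head (3.14 and 3.64), had a single annotated start, which lay under no peak of another tissue. A peak at a start is not a measure of the gene's transcription, which was not part of these files.

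For genes, the peak bases within the gene and 10 kb on each side were divided by the Mb covered by the list. A gene was called higher when both cerebellum lists were above all 14 others and lower when both were below. Of 20373 coding genes, 979 (4.81%) were higher and 6615 (32.5%) lower, so genes as a whole held less of the cerebellum lists. Without the division 2054 (10.1%) were higher and 988 (4.85%) lower, which turns the balance. Called genes followed base composition, since 12.4% of the genes in the lowest of 3 equal classes of G and C content were higher, against 1.88% in the middle class and 0.0884% in the highest.

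In the deposited lists few genes of known cell types were called higher. Of 148 genes measured in 12 lists, 5 of cerebellar cells, patterning and synapses and 7 of other cell types and organs, 3 were higher (2.03% against 4.81% of all genes) and 24 lower (16.2% against 32.5%). These shares turned with the scaling. With lists of equal length 12 of the 148 were higher (8.11% against 4.26% of all genes) and 18 lower (12.2% against 20.5%), and without the division 20 were higher (13.5% against 10.1%) and 4 lower (2.70% against 4.85%). The 66 genes of the 5 cerebellar lists gave 2, 11 and 13 higher on these 3 scales, in the order deposited per Mb, equal length and undivided, and the 82 other genes 1, 1 and 7. NXPH1, a ligand of neurexins that marks cerebellar interneurons in its list, had 267 and 199 peak bases per Mb in cerebellum and 8.01 to 152 elsewhere, the nearest being hypothalamus of P350. It had 43 cerebellum-only regions. CA8, a protein of Purkinje cells that binds the inositol trisphosphate receptor, had 122 and 120 against 18.9 to 109, with liver of P348 next, and 12 cerebellum-only regions. At q under 0.0001 CA8 was not called, with a mean difference of 24.0 peak bases per Mb. RGS5, a marker of pericytes in the vessel wall list, had 57.6 and 65.3 against 0 to 23.9, but at q under 0.0001 its mean was lower in cerebellum by 3.56 peak bases per Mb, and it was not called in lists of equal length.

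The 66 genes of the 5 cerebellar lists were higher in 3.03% and lower in 10.6%, against 4.81% and 32.5% of all coding genes. Among granule neuron genes 0 of 20 were higher and 1 lower, SLC17A7, a vesicular glutamate transporter, at 27.2 ± 8.86 (SD, n = 2) against 50.1 ± 11.07 (n = 14) peak bases per Mb. Purkinje cell genes gave 1 of 18 higher and 3 lower. Those were RORA, a nuclear receptor needed by Purkinje cells, at 146 ± 29.6 against 546 ± 249 with the maximum in skeletal muscle of P350, PLCB4, a phospholipase of that cell, at 80.5 ± 8.99 against 208 ± 83.4, and PCP2. Interneuron and brush cell genes gave 1 of 12 higher and 0 lower, and their median ratio to the other lists was 1.498. The median ratio was 0.460 for all genes and 0.716 to 0.974 in the other 4 cerebellar lists. In the hindbrain patterning list 0 of 11 measured were higher and GBX2 and WNT1 were lower. In the cerebellin synapse list 0 of 9 were higher and 1 was lower. Several genes, such as CBLN1 and PAX2, stand in more than 1 of these lists.

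Lists of other cell types and organs held 1 gene that was higher, RGS5. Their 82 genes were higher in 1.22% and lower in 20.7%, against 4.81% and 32.5% of all coding genes. The lower genes named here are therefore no more frequent than lower genes in general. Genes of neurons in general had 0 of 14 higher and VAMP2 and SYP, a pair of synaptic vesicle proteins, lower. Astrocyte and Bergmann glia genes had 0 of 10 higher and 1 lower, GFAP, the filament protein of astrocytes. Oligodendrocyte genes had 0 of 10 higher and 4 lower, CNP, MOBP, SOX10 and MAG, genes of the cells that make myelin. MOBP had 4.69 ± 1.07 peak bases per Mb in cerebellum and 15.5 to 96.2 in the other lists, with its maximum in cerebral cortex of P350. Forebrain genes had 0 of 18 higher and DLX1 and DLX2, homeobox factors of forebrain interneurons, lower. Microglia genes had 0 of 10 higher and AIF1 and C1QB lower. Vessel wall genes had 1 of 9 higher, RGS5, and PECAM1 and PDGFRB lower. Genes of other organs had 0 of 11 higher and 4 lower, CD79B, ADIPOQ and PLIN1 among them. The median ratios of these 7 lists ran from 0.281 for other organs and 0.356 for oligodendrocytes to 0.772 for astrocytes and Bergmann glia.

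With peaks of q under 0.0001, an alternative added after the data were seen, 479 of all genes (2.35%) were higher and 888 (4.36%) lower, and 7 of the 148 list genes (4.73%) were higher and 6 (4.05%) lower. They were GABRA6, NEUROD1 and ZIC1 of the 20 granule neuron genes, NXPH1, STMN2 and MAP2 of neurons in general, and PTPRZ1, a phosphatase of glia. NEUROD1 (chr15:87175629-87179953), the factor that drives granule neuron differentiation, had 161 and 110 peak bases per Mb against 0 to 77.8, with adipose of P350 next. STMN2 had 210 and 145 against 0 to 92.6, and MAP2, a microtubule protein of dendrites, had 194 and 171 against 15.6 to 148, both with a hypothalamus list next. PTPRZ1 had 98.5 and 93.7 against 0 to 71.7. NEUROD1, STMN2, MAP2 and PTPRZ1 were named after their values were seen.

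**Figure D4:**
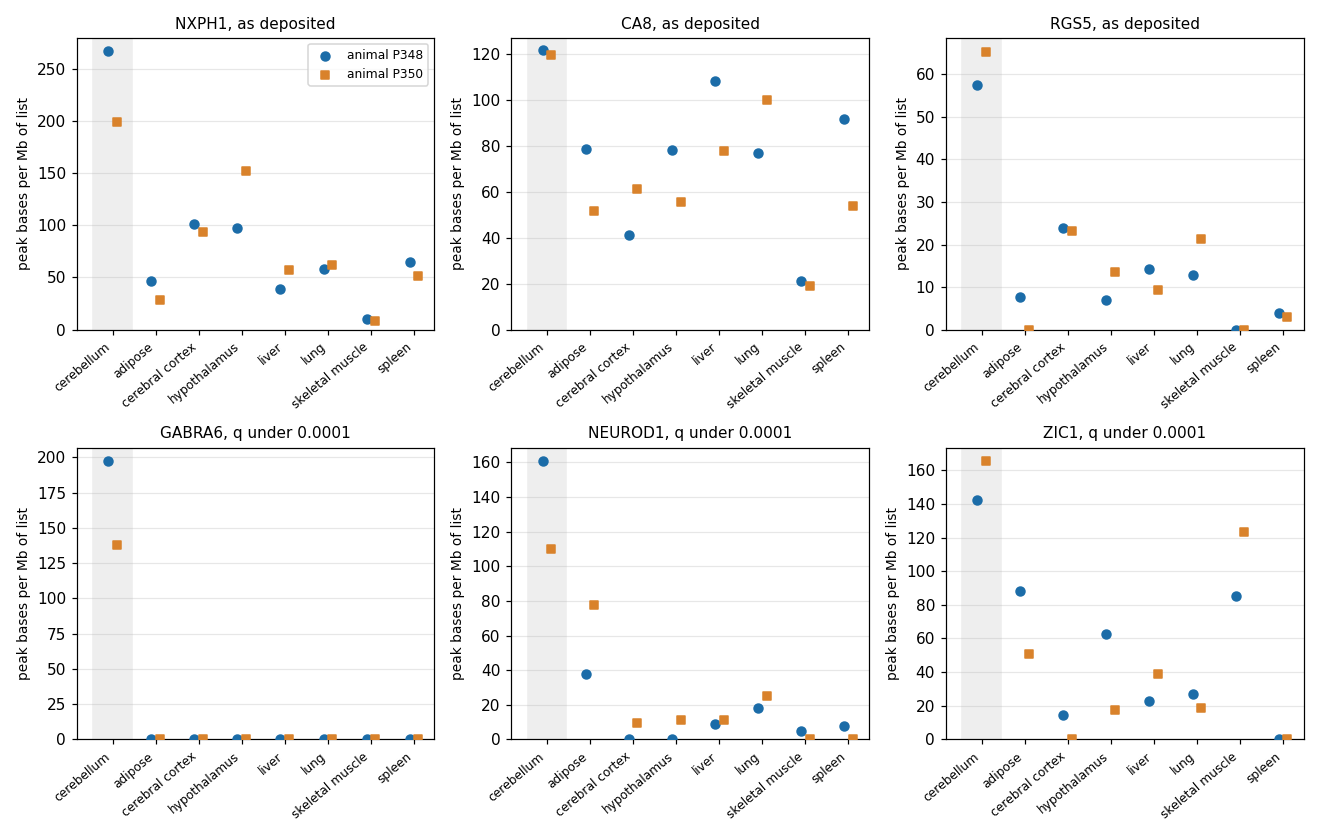
Peak bases within the gene and 10 kb on each side per Mb of the list (y axis) for 6 genes in each pig list, by tissue (x axis), with 1 point per animal. NXPH1, CA8 and RGS5 use the deposited lists and GABRA6, NEUROD1 and ZIC1 peaks with q under 0.0001. In all 6 panels, each with its own limit, both cerebellum points lie above the 14 others, and at GABRA6 those 14 are at 0. CA8 and RGS5 were not above all others at q under 0.0001, nor GABRA6, NEUROD1 and ZIC1 in the deposited lists.

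Motifs in the central 200 bp were compared over libraries. In the tissue-only peaks of the deposited lists 0 of 14 motifs passed the exact permutation test after adjustment over the 14 and 3 had a raw p under 0.05, homeobox, RFX and ETS. The E-box CAGATG stood in 18.5% and 19.8% of cerebellum tissue-only peaks and in 15.2% to 21.3% elsewhere, highest in cerebral cortex of P348. It occurred in 18.6% of the cerebellum-only regions, in 17.4% of all merged regions and in 9.77% of the regions open in all 8 tissues. TAATTA, bound by homeobox factors, was in 6.51% and 5.42% against 2.97% to 5.95%. CCGGAAG, bound by ETS factors, was in 0.359% and 0.511% against 0.552% to 1.33%, with both cerebellum lists below all others (exact permutation p = 0.00833, adjusted 0.117).

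Over all peaks of each list, a comparison added after seeing the data, 6 of the 14 motifs passed after adjustment. Both cerebellum lists were above the 14 others for CAGATG, at 17.9% and 18.1% against 15.2% to 17.7%. Both were below the others for CAGCAGG (8.35% and 9.91% against 10.01% to 11.13%), CCGGAAG (1.38% and 1.76% against 2.01% to 2.91%) and AGGGGGC (4.35% and 5.68% against 6.28% to 8.28%), each of the 4 motifs with an adjusted exact permutation p of 0.0292. TAATTA was in 4.51% and 3.46% against 2.05% to 3.56%, and GTTGCC in 8.98% and 9.46% against 8.40% to 9.12%, so 1 cerebellum list overlapped the others for each (adjusted exact permutation p = 0.0389). With choices within the paired animals the adjusted exact permutation p was 0.0547 for the first 4 motifs and 0.0729 for TAATTA and GTTGCC. All 6 then missed the threshold. These lists differ in GC content as given above, and over the 8 tissues the exact p cannot be below 0.125.

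In the stronger peaks the E-box was more frequent in both cerebellum lists than in any other list, though it did not pass correction. At q under 0.0001 CAGATG was in 27.0% of 7567 tissue-only cerebellum peaks of P348 and in 27.4% of 9205 of P350, and in 14.5% to 21.4% of those of the other 14 lists, with both cerebral cortex lists next at a mean of 21.1%. The difference was 9.48 percentage points (27.2 ± 0.233 against 17.7 ± 2.17, SD, n = 2 and 14). Its exact permutation p was 0.00833, the smallest the 120 choices can give, and 0.117 after adjustment over the 14 motifs, so it failed the correction. When every list was cut to the length of the shortest, the shares were 21.6% and 24.3% against 15.8% to 22.2%, so 1 cerebellum list overlapped cortex (exact permutation p = 0.0167, adjusted 0.0778). In deposited peaks of 36 to 44% G and C the difference was -0.03 points. GTTGCC, the RFX motif, was in 11.6% and 11.4% at q under 0.0001 against 7.72% to 11.4%, and CAGCAGG, the ZIC motif, in 12.1% and 14.01% against 7.77% to 13.6%, with adjusted p = 0.175 and 0.194 by the exact permutation test.

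**Figure D5:**
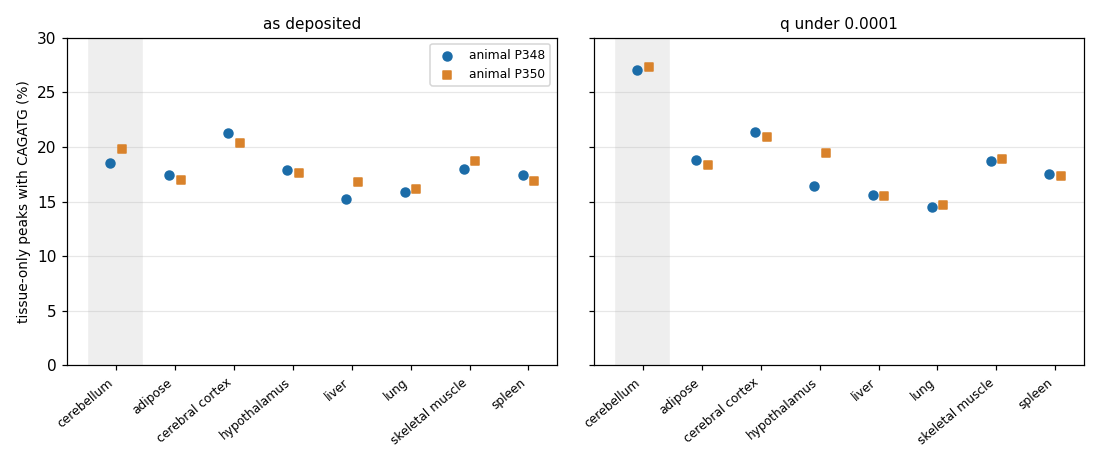
Share of tissue-only peaks with CAGATG on either strand in their central 200 bp (y axis, percent) by tissue (x axis), with 1 point per animal, for the deposited lists on the left and peaks with q under 0.0001 on the right. On the left the cerebellum lists, 18.5% and 19.8%, lie among the others, and on the right they lie at 27.0% and 27.4%, above all 14.

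The regions left at q under 0.0001, when the rule was applied to peaks past that limit alone, numbered 3183 of 18206 open in both cerebellum lists (17.5%). They had a median weaker fold of 4.13, were 62.5% intergenic and 1.73% TSS proximal, and had a median GC content of 51.5% against 44% for the 19024. CAGATG was in 28.7% of them. Only 718 (22.6%) overlapped a region of the 19024, because weaker peaks of other tissues met the rest. The genes nearest to most of them were OTOL1 with 17, EPHA6 and GBE1 with 13, CNTNAP5 and KLHL1 with 12, and CDH9, CELF4, TENM3 and TYRP1 with 11. PCDH7 and PTPRD had 10 and NCAM2 had 9, so 5 of the leading 15 genes were the same as before. These genes were named after their values were seen. Both rankings came from the same lists and shared regions, so the 5 genes in common are a description. How many would be shared without a link was not tested.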

How the data were processed

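Peak lists of ATAC-seq libraries were analysed, 16 from pig and 15 from cattle. The authors trimmed, aligned and filtered reads (their processing notes list Trim Galore 0.4.5, BWA 0.7.17, SAMtools 1.10 and Picard 2.18.17) and called broad peaks per library with MACS2 at a stated q-value of 0.05. In the deposited pig lists the q-value, averaged over a peak, ran up to 0.0999, and 1.54% to 16.3% of the peaks of a pig list were above 0.05, 16.3% and 8.83% in cerebellum. A shift of read ends is not given in the sources used here. The deposited score is close to 10 times the −log10 q-value, and the deposited fold is a ratio of peak signal over background, averaged across the peak. The authors' −log10 p-values and −log10 q-values stand in the last columns. Scores were not used. Read depth was not used here.

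Positions are on Sscrofa11.1, the build of the lists, with NCBI annotation release 106, while the study used Ensembl annotation. Of 270 sequence names, 269 were matched (the mitochondrial sequence was not used). No cattle genome was used here. Overlap was at least 1 bp. Samples were grouped by labelled tissue, and the animal name, which pairs tissues of the same animal, was the replicate. The mean Jaccard overlap of different tissues was 0.208 within and 0.208 between pigs. Tests were exact permutation tests, two-sided, over 120 choices of lists, or 64 within animals, with a threshold of 0.05 and Benjamini-Hochberg adjustment. Gene calls carry no p-value. Named genes were the 3 markers, the 15 genes nearest to most regions, the 10 with a start within 500 bp of a region of highest weaker fold, and, per list, up to 4 genes higher and 2 lower with the largest difference, without unnamed loci; named regions were the 6 of highest weaker fold and the 3 richest bins. Some genes and 1 region that these rules name are not reported here. Members, lists and motifs were chosen with earlier results of these data known. Statistics were tested on simulated data. Python 3.11.15, NumPy 2.4.6, pandas 2.3.3 and SciPy 1.17.1 were used. Alternatives were q limits of 0.01 and 0.0001, lists of equal length, merging within 500 bp, autosomes alone, 500 bp TSS distance, 400 bp windows, gene flanks of 2 and 50 kb, unscaled bases, the replicate block and leaving out an animal; those on GC content, on folds of at least 4, on genes at q under 0.0001, on q under 0.05, on motifs over all peaks and on intergenic shares were added after seeing the data.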

Additional observations from a re-analysis of the deposited data

How the results depend on the processing

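The 19024 cerebellum-only regions became 11466 at q under 0.01, 3183 at q under 0.0001, 8133 with lists of equal length, 46460 when another tissue counted only with both animals, 563 with a fold of at least 4 in both lists, and 55946 to 89374 with 1 animal. Leaving out an animal gave 31.7 to 46.2 points for recovery, 0.63 to 0.73 and 0.71 to 0.85 (log2) for peak number and covered length, -1.98 to -1.81 points for the TSS proximal share, 13.9 to 18.4 for the repeat share and 23.1 to 27.2 for the intergenic share, where the exact p cannot be below 0.125. At q under 0.0001 peak number and covered length reversed (both -0.49), as did GC content (0.308 points). The TSS proximal difference missed the threshold at 500 bp (-0.552 points) and in 36 to 44% GC (-1.24 points), and GC content over all peaks passed it (-3.45 points, exact permutation p = 0.0167). With the replicate block, choices within the paired animals gave exact p = 0.0156 in place of 0.00833 and changed no call. For recovery neither p-value decides anything, because the choice of regions favoured the cerebellum lists. Genes called higher were 2054 unscaled, 1548 with 50 kb flanks, 479 at q under 0.0001 and 1681 to 1997 with 1 animal, and genes called lower were 988 unscaled, 4181 with equal lists, 888 at q under 0.0001 and 8287 to 12250 with 1 animal, the largest without P350. Differences that reversed at q under 0.0001 were those of ZIC (2.999 points), NFI (3.11), homeobox (-0.156) and HNF1 (-0.343) motifs and of RGS5 (-3.56 peak bases per Mb). CAGCTG reversed with equal lists (0.0838) and MEF2 with 400 bp windows (0.0319) and over all peaks (0.000707). Over all peaks 6 of 14 motifs passed the adjusted test in place of 0, as an alternative chosen after seeing the data. With the replicate block these 6 did not pass, with adjusted exact permutation p of 0.0547 to 0.0729. In 36 to 44% GC windows CAGATG (-0.0349), ZIC (0.157), RFX (-0.346), CTCF (0.0271), nuclear receptor (-0.265) and HNF1 (-0.171) reversed. CBLN1 reversed with 50 kb flanks (-6.40 peak bases per Mb), and ZIC1 unscaled (1519 bases), with equal lists (37.2 per Mb) and at q under 0.0001 (115 per Mb). The cause of each reversal was not tested. Depth was not used here.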
